A study of Mus musculus with 6 samples.

Results

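The Deltex genes Dtx1, Dtx2, Dtx3, Dtx3l and Dtx4 and the Notch pathway genes Notch1, Notch2, Rbpj, Maml1 and Hes1 were followed in haematopoietic stem cells (HSC) with and without a Lig4 mutation. These 10 of 18193 annotated genes were measured by 20 of the array's 45037 probe sets that are no controls, namely every probe set whose annotation names exactly 1 of them. Dtx4 was chosen by its measured difference between the genotypes, being higher in the mutant, so that difference is given as a description with no test. The other 9 genes, with 18 probe sets, were listed as relatives of Dtx4 or as core genes of the pathway and not for their values.

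The cells were CD150+ CD48- KSL bone marrow cells, sorted at an age of 6 to 8 weeks. The mutant mice (Lig4mut) and their wild-type littermates (WT, Lig4+/+) came from crosses of Lig4mut/+ parents, and neither group received an agent. The labels do not describe the Lig4 mutation, nor whether a replicate was 1 mouse or a pool. Each genotype had 3 biological replicates, 1 array each, so the number of arrays limits the precision. All levels are log2 values after quantile normalization across the 6 arrays, and all differences are Lig4mut minus WT.

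Notch receptors are cut after they bind a ligand on a neighbouring cell, and the freed intracellular part joins the DNA-binding protein RBPJ and a Mastermind coactivator such as MAML1 to switch on targets such as Hes1. Deltex proteins are ubiquitin ligases that act on the Notch receptor or on other substrates, and Dtx1 is itself a known Notch target in lymphoid cells. In blood, Notch1 is known for starting the T lineage and Notch2 for marginal zone B cells.

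RBPJ binds DNA words that contain TGGGAA, so the promoters of the members were searched for this word and for the longer GTGGGAA on both strands, where the longer word contains the shorter. The RefSeq promoter table for GRCm38.p6 matched 7 of the 10 genes, with 8 windows of 250 bases before a start. It had no entry for Dtx3, Dtx4 and Hes1. The word TGGGAA was found in windows of 2 genes, Dtx2 and Rbpj, and it is in 21.6% of all 32851 windows of that length in the table. GTGGGAA was in none of the members' windows and in 5.42% of all windows. The window of Dtx2 and the more upstream of the 2 Rbpj windows are shown because they hold the word. It is in capitals and appears as TTCCCA where it lies on the other strand. The other Rbpj window overlaps the one shown and holds the word as well, 205 bases before its own start. The Dtx2 window is chr5:135994550-135994799, plus strand, and the Rbpj window chr5:53590096-53590345, plus strand.
Dtx2: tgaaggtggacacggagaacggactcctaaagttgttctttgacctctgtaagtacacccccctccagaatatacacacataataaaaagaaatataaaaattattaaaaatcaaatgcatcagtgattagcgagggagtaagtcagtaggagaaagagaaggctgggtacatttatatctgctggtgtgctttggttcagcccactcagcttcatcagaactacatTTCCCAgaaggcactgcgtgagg
Rbpj: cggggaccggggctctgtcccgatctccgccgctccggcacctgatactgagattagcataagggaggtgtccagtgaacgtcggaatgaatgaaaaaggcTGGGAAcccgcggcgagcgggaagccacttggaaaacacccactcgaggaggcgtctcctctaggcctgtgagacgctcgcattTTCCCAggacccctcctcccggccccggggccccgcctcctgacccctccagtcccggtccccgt
The word begins 23 bases before the start in Dtx2 and 149 and 65 bases before it in the Rbpj window shown. These matches describe the sequence and do not show that RBPJ binds there.

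Facts of the arrays bear on every result. Lig4, the targeted gene, was at 7.53, 6.66 and 7.63 in WT and 4.97, 3.16 and 3.10 in Lig4mut, so all 3 mutant arrays lay below all 3 WT arrays. The mutant arrays were less alike (r = 0.850 to 0.865 across probe sets, against 0.940 to 0.949 between WT arrays). Of 10 measured HSC markers 8 were lower in Lig4mut, with a mean list level of 10.49 to 10.78 in WT and 9.37 to 10.36 in Lig4mut. Granulocyte markers ranged from 7.87 to 8.68 in WT and stood at 6.05, 10.70 and 6.74 in Lig4mut replicates 1, 2 and 3. In RNA from sorted cells, a different share of cells of a type and a different amount of RNA per cell cannot be told apart.

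**Figure D1:**
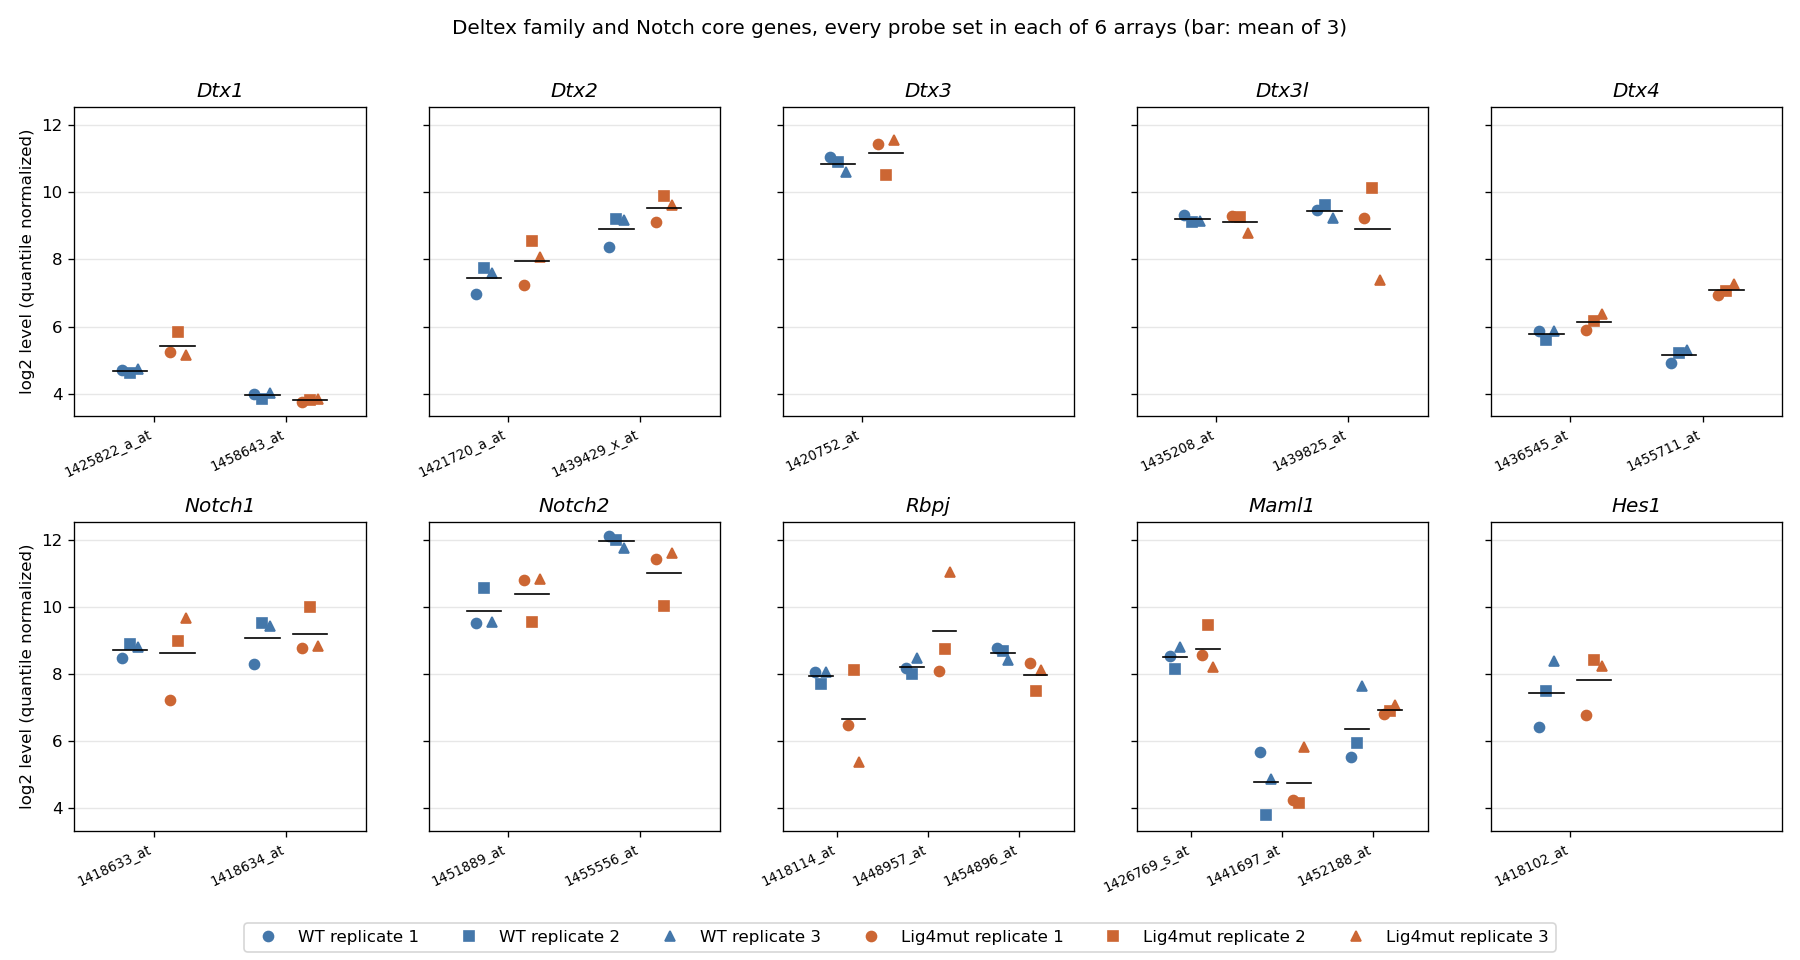
Log2 level (quantile normalized) of every member probe set in each of the 6 arrays, with WT in blue, Lig4mut in orange, a marker shape per replicate number and a bar for the mean of 3. In Dtx4 probe set 1455711_at all Lig4mut arrays (6.94 to 7.28) sit above all WT arrays (4.92 to 5.30), while the Lig4mut arrays of Rbpj spread from 5.40 to 8.14 in 1 probe set and from 8.09 to 11.05 in another.

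Dtx4, whose product ubiquitinates the Notch receptor among other substrates, had higher values in the mutant in 1 of its 2 probe sets by a wide margin. Probe set 1455711_at was at 4.92, 5.20 and 5.30 in WT and at 6.94, 7.07 and 7.28 in Lig4mut. Every mutant array was above every WT array, and the genotypes were separated by far more than the spread within either. The means were 5.14 ± 0.19 (SD, n = 3) and 7.10 ± 0.17, a difference of 1.96 ± 0.16 (SE) or 3.89-fold. In the values as deposited, before the quantile step, the difference was 1.69.

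The other Dtx4 probe set, 1436545_at, differed much less. It was at 5.86, 5.59 and 5.86 in WT and at 5.88, 6.17 and 6.38 in Lig4mut, a difference of 0.37 ± 0.17 (SE, n = 3 per genotype). The lowest mutant array lay just above the highest WT arrays. In the deposited values the groups overlapped and the difference was 0.05. The 2 probe sets therefore gave different sizes. The level of 1436545_at minus that of 1455711_at was 0.39 or more in every WT array, up to 0.94, and ranged from -1.06 to -0.90 in the mutant. With both averaged the gene was at 5.39, 5.39 and 5.58 in WT and 6.41, 6.62 and 6.83 in Lig4mut, a difference of 1.17. The 3 arrays of each genotype again did not overlap.

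The other Deltex genes showed no difference past the threshold. Of the 18 member probe sets other than those of Dtx4, 0 passed an adjusted p of 0.05 (limma, Benjamini-Hochberg over all 45037 probe sets, adjusted p = 0.199 to 1), where percent called over the array was 0. At an unadjusted p under 0.05 there was 1, or 5.56%, against 17.6% of all probe sets (12.1% higher and 5.57% lower). Groups that did not overlap were seen in 3, or 16.7%, against 23.8% of all probe sets (16.4% higher and 7.36% lower). The 3 were 1 probe set each of Dtx1, higher, and of Notch2 and Rbpj, lower. Of the 18, 10 were higher and 8 lower with and without the quantile step, and 13 were higher with arrays centred on their medians. Their median difference was 0.17, beside 0.08 for all probe sets, and 10 of the 18 lay above that median. The median of all probe sets was -0.04 in the deposited values and 0.27 with centred arrays, so small differences depend on the scaling.

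Dtx1, a Deltex ligase gene and Notch target, was the 1 case at the unadjusted level. Probe set 1425822_a_at was at 4.71, 4.62 and 4.72 in WT and at 5.25, 5.85 and 5.15 in Lig4mut. All mutant arrays were above the WT arrays, by 0.73 ± 0.21 (SE) or 1.66-fold (limma, unadjusted p = 0.0196, adjusted p = 0.199). The unadjusted p was above 0.05 in the deposited values (0.0783), with cyclic loess (0.0535), with the replicate block (0.0525), with probe sets averaged (0.0886) and without any 1 WT array (0.0504 to 0.061), all by limma. Dtx1 probe set 1458643_at went the other way, with 3.98, 3.83 and 4.03 in WT and 3.74, 3.82 and 3.85 in Lig4mut (difference -0.14 ± 0.10 SE; limma, adjusted p = 0.546). Its groups overlapped after the quantile step and did not overlap in the deposited values, where the mutant arrays were lower, with a difference of -0.33. In those values the first probe set differed by 0.45. The gap between the Dtx1 probe sets was 0.70 to 0.80 in WT and 1.296 to 2.03 in Lig4mut.

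Dtx2, a ubiquitin ligase close to Dtx1, had higher means in Lig4mut in both probe sets, within overlapping groups. Probe set 1439429_x_at was at 8.37, 9.21 and 9.18 in WT and at 9.11, 9.89 and 9.63 in Lig4mut. The suffix _x_at marks a probe set whose probes can also match other transcripts. The difference was 0.62 ± 0.33 (SE; limma, adjusted p = 0.41), with a 95% interval of -0.23 to 1.48. Probe set 1421720_a_at was at 6.96, 7.76 and 7.59 in WT and at 7.25, 8.55 and 8.07 in Lig4mut, a difference of 0.52 ± 0.41 (adjusted p = 0.576). In both probe sets replicate 1 was the lowest array of its genotype. Without 1 array the differences ranged from 0.35 to 0.84 and from 0.22 to 0.87. The gap between them was -1.59 to -1.41 in WT and -1.86 to -1.34 in Lig4mut, so the probe sets of Dtx2 kept a similar gap in all 6 arrays.

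Dtx3, which shares the Deltex C-terminal domain and has 1 probe set, was at 11.06, 10.91 and 10.61 in WT. In the Lig4mut arrays it was at 11.45, 10.54 and 11.58. Replicate 2 of the mutant was the lowest of the 6 arrays and the other mutant arrays were the highest, so the groups overlapped (difference 0.33 ± 0.33 SE; limma, adjusted p = 0.661). Without Lig4mut replicate 2 the difference was 0.65 (limma, unadjusted p = 0.0222, adjusted p = 0.215).

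Dtx3l, whose product pairs with the ADP-ribosyltransferase PARP9 in the response to DNA damage and interferon, spread more in the mutant than in WT. Probe set 1439825_at was at 9.48, 9.63 and 9.24 in WT and at 9.24, 10.13 and 7.40 in Lig4mut. The mutant arrays included both the highest and the lowest of the 6. The difference was -0.52 ± 0.73 (SE; limma, adjusted p = 0.763), and it was 0.24 without Lig4mut replicate 3 and -1.11 without Lig4mut replicate 2. Probe set 1435208_at was nearly level, with 9.34, 9.12 and 9.16 in WT and 9.29, 9.25 and 8.79 in Lig4mut (difference -0.09 ± 0.18 SE, 95% interval -0.55 to 0.36). Here too replicate 3 of the mutant was the lowest array, and without it the difference was 0.067. With arrays centred on their medians it was 0.20.

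**Figure D2:**
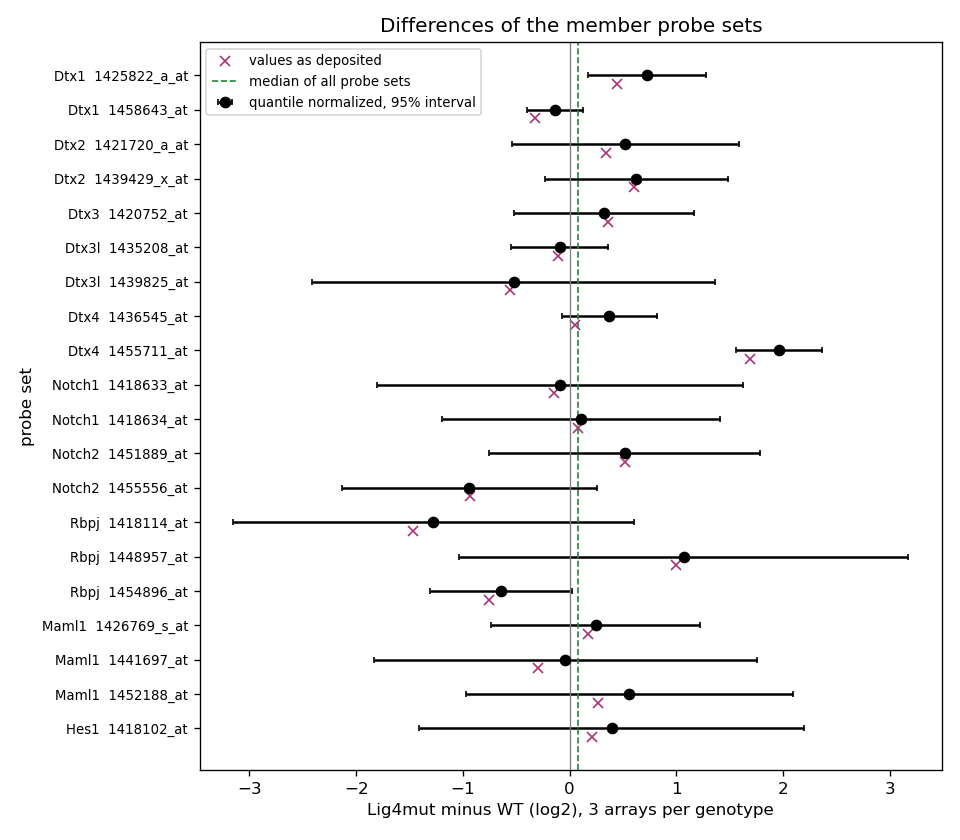
Difference Lig4mut minus WT on the log2 scale for the 20 member probe sets (black points, with 95% intervals from limma, 3 arrays per genotype), the same difference in the deposited values (crosses) and the median of all probe sets (dashed line). Dtx4 1455711_at lies at 1.96. Dtx4 was chosen for its value, so the intervals drawn for its 2 probe sets are no test of it. Of the 18 probe sets of the other genes, only that of Dtx1 1425822_a_at has an interval that leaves out 0.

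Among the receptors, the 2 probe sets of Notch2 differed in opposite directions. Notch2 probe set 1455556_at was at 12.13, 12.02 and 11.77 in WT and at 11.44, 10.04 and 11.62 in Lig4mut. All mutant arrays were below the WT arrays, with replicate 2 far below the others. The difference was -0.94 ± 0.47 (SE; limma, adjusted p = 0.378), and it was -0.45 without Lig4mut replicate 2. That array also had the lowest mean level of the HSC markers, 9.37. It had the highest level of all other marker lists but the erythroid one, with the granulocyte list at 10.70. The part of these lists in the result was not tested.

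Notch2 probe set 1451889_at was at 9.55, 10.56 and 9.57 in WT and at 10.83, 9.56 and 10.84 in Lig4mut. The groups overlapped, since WT replicate 2 lay near the high mutant arrays and Lig4mut replicate 2 among the low WT arrays. The difference was 0.52 ± 0.49 (SE; limma, adjusted p = 0.643), and the values without 1 array ranged from 0.30 to 0.93. The level of 1451889_at minus that of 1455556_at was -2.58, -1.46 and -2.19 in WT and -0.61, -0.48 and -0.78 in Lig4mut. This gap did not overlap between genotypes, with a shift of 1.45. For a single value with 3 arrays against 3, an exact permutation test cannot give a p below 0.1. With both probe sets averaged, Notch2 differed by -0.21.

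Notch1, the receptor needed for the T lineage, gave no direction. Probe set 1418633_at was at 8.47, 8.91 and 8.81 in WT and at 7.25, 8.99 and 9.69 in Lig4mut, a difference of -0.09 ± 0.67 (SE; limma, adjusted p = 0.983). The mutant arrays lay both below and above all WT arrays. The difference was 0.61 without Lig4mut replicate 1 and -0.60 without Lig4mut replicate 3. Probe set 1418634_at was at 8.32, 9.55 and 9.43 in WT and at 8.78, 9.998 and 8.83 in Lig4mut (difference 0.11 ± 0.51 SE; adjusted p = 0.957), and it was -0.29 without WT replicate 1 or without Lig4mut replicate 2. Lig4mut replicate 3 was the highest array in 1418633_at and below 2 of the WT arrays in 1418634_at.

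Rbpj, the DNA-binding hub of the pathway, gave the widest spread among the mutant arrays. Its 3 WT arrays were close together in each probe set, with SDs of 0.18 to 0.23. Probe set 1418114_at was at 8.06, 7.71 and 8.07 in WT and at 6.48, 8.14 and 5.40 in Lig4mut. Mutant replicates 1 and 3 were below all WT arrays and replicate 2 was above them. The difference was -1.28 ± 0.73 (SE; limma, adjusted p = 0.437). It was -1.99 without Lig4mut replicate 2 (limma, unadjusted p = 0.00725, adjusted p = 0.162) and -0.63 without Lig4mut replicate 3.

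Rbpj probe set 1448957_at had the opposite sign, at 8.19, 8.02 and 8.49 in WT and 8.09, 8.77 and 11.05 in Lig4mut (difference 1.07 ± 0.82 SE; limma, adjusted p = 0.561). It rested on Lig4mut replicate 3, and without that array it was 0.19. Rbpj probe set 1454896_at was at 8.77, 8.71 and 8.43 in WT and at 8.32, 7.50 and 8.14 in Lig4mut. Here all mutant arrays were below all WT arrays, with a difference of -0.65 ± 0.26 (SE; adjusted p = 0.295) or 1.57-fold and a 95% interval of -1.31 to 0.018. Without Lig4mut replicate 2 it was -0.39.

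Within Lig4mut replicate 3 the level of the first Rbpj probe set minus that of the second was -5.65, against -0.42 to -0.13 in WT. The same array was thus the lowest of the 6 in 1 probe set of Rbpj and the highest in another. Averaged over its 3 probe sets Rbpj was at 8.34, 8.15 and 8.33 in WT and at 7.63, 8.13 and 8.20 in Lig4mut. These averages were close for all arrays but Lig4mut replicate 1, and the difference was -0.28.

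Maml1, the Mastermind coactivator, had no probe set with separate groups. Probe set 1426769_s_at was at 8.56, 8.16 and 8.82 in WT and at 8.57, 9.46 and 8.23 in Lig4mut (difference 0.24 ± 0.38 SE; limma, adjusted p = 0.794), and without Lig4mut replicate 2 it was -0.11. Probe set 1452188_at was at 5.53, 5.95 and 7.66 in WT and at 6.83, 6.90 and 7.09 in Lig4mut, a difference of 0.56 ± 0.60 (adjusted p = 0.68) that was 1.20 without WT replicate 3. Here it was the WT arrays that spread, with an SD of 1.13 against 0.14 in the mutant. Probe set 1441697_at was at 5.69, 3.79 and 4.88 in WT and at 4.25, 4.16 and 5.82 in Lig4mut (difference -0.04 ± 0.70, and -0.58 to 0.41 without 1 array).

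Hes1, the transcriptional repressor that is a common readout of Notch activity, overlapped between the genotypes. Its single probe set was at 6.42, 7.50 and 8.39 in WT and at 6.79, 8.43 and 8.26 in Lig4mut. The difference was 0.39 ± 0.70 (SE; limma, adjusted p = 0.823), with a 95% interval of -1.41 to 2.19. All differences within that interval are compatible with these arrays. Without WT replicate 1 the difference was -0.12, and without Lig4mut replicate 1 it was 0.90. WT replicate 1 also had the lowest mean level of the endothelial (7.85), erythroid (5.56), megakaryocyte (7.57) and stromal (5.49) marker lists. The list of 8 endothelial markers was at 8.94 and 9.60 in the rest of WT and 10.27, 10.50 and 8.79 in the mutant arrays. Lig4mut replicate 1, at 10.27 in that list, had the lowest Hes1 value of the mutant arrays, 6.79. The part of these lists in the result was not tested.

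The mutant arrays spread more than the WT arrays in 13 of the 18 probe sets without Dtx4, beside 66.8% of all probe sets. Over the 20 member probe sets the median SD was 0.23 in WT and 0.65 in Lig4mut, and over all probe sets 0.30 and 0.46.

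**Figure D3:**
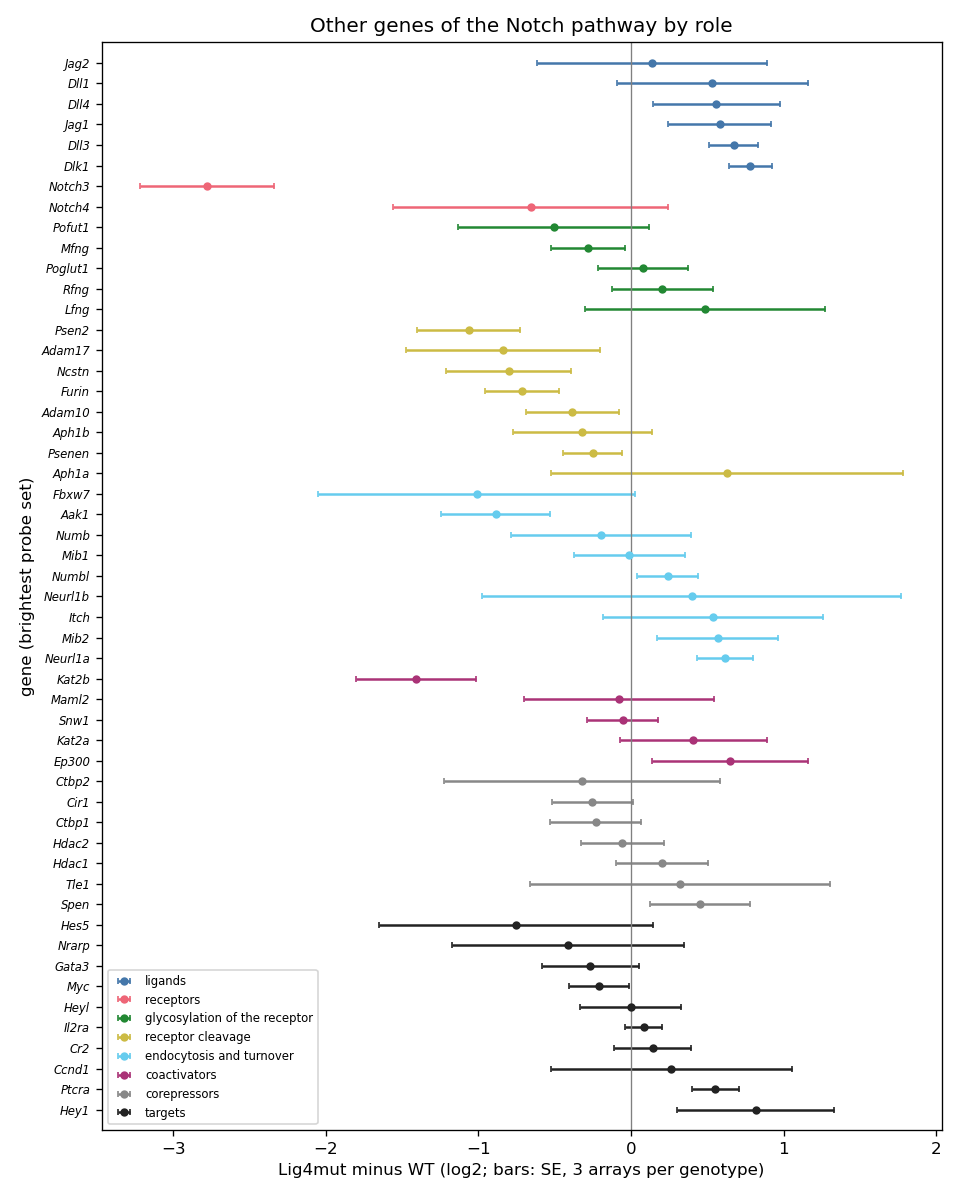
Difference Lig4mut minus WT on the log2 scale for 52 other genes of the Notch pathway, each by its brightest probe set, coloured by role, with bars for the SE (3 arrays per genotype). The 6 ligand genes all lie above 0 (5 of 6 with probe sets averaged), Notch3 lies at -2.78, and Hey2, at the lowest value of the table in all arrays, is left out.

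Other genes of the pathway were taken from a list of 58, of which 53 were measured by a probe set naming them alone. None of the 53 passed the threshold over the array (limma, smallest adjusted p = 0.112), and 8 had an unadjusted p under 0.05, 4 higher and 4 lower. That is 15.1%, against 17.6% of all probe sets. With each gene over the array also by its brightest probe set, 3586 of 18193 genes had such a p (limma), 78.8% of them higher. Of the 8 listed genes, Furin, Psen2, Neurl1a, Ptcra and Dlk1 had an unadjusted p above 0.05 under at least 1 alternative, Dlk1 only with probe sets averaged. By sign 25 of the 53 were higher and 27 lower, with a median of -0.00303, and in the deposited values 22 of 52 were higher. With arrays centred on their medians 36 of 52 were higher.

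The largest difference in the list was that of Notch3, a receptor also known from vessel wall cells. It was at 6.996, 8.23 and 7.57 in WT and at 5.43, 4.33 and 4.69 in Lig4mut. All mutant arrays were below all WT arrays, with a difference of -2.78 ± 0.44 (SE) or 6.87-fold, short of the threshold (limma, adjusted p = 0.112, and 0.121 to 0.303 over the alternatives). Both of its probe sets were lower, with a mean of -1.58. Notch4, the other receptor on the list, differed by -0.66 ± 0.90 with overlapping groups, and by -0.0011 without WT replicate 2 and -1.46 without WT replicate 1. The test of whether the receptors differ from one another was not made.

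All 6 measured ligand genes had higher values in Lig4mut, with a median of 0.57 that was 0.27 in the deposited values, and 5 of the 6 did so with probe sets averaged. Over the array the lean was upward too. Of genes with an unadjusted p under 0.05 (limma, each by its brightest probe set), 78.8% were higher. None passed the threshold. Dlk1, which encodes a Delta-like protein, was at 5.56, 5.64 and 5.87 in WT and at 6.32, 6.46 and 6.64 in Lig4mut (difference 0.78 ± 0.14 SE; limma, adjusted p = 0.124). Dll3 was at 3.95, 3.85 and 4.14 in WT and at 4.51, 4.54 and 4.91 in Lig4mut (difference 0.67 ± 0.16; adjusted p = 0.156). Dlk1 and Dll3 both had groups that did not overlap, with the mutant higher, as had 16.4% of all probe sets. Jag1 differed by 0.58 ± 0.34, and with its 3 probe sets averaged by 0.00431.

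Of the 8 genes for receptor cleavage 7 had lower values, with a median of -0.55 (6 of 8 with arrays centred on medians or with probe sets averaged). Psen2, a catalytic subunit of gamma-secretase, was at 8.77, 8.54 and 8.81 in WT and at 7.17, 7.43 and 8.34 in Lig4mut. Its difference was -1.07 ± 0.34 (SE; limma, adjusted p = 0.218), but its other probe set was higher and the mean of both was -0.30. The protease gene Furin, which cuts the receptor during its maturation, was at 9.76, 9.10 and 9.16 in WT and at 8.78, 8.76 and 8.34 in Lig4mut (difference -0.71 ± 0.24; adjusted p = 0.241). Ncstn, the gamma-secretase subunit nicastrin, differed by -0.80 ± 0.41, and by -0.0064 with its probe sets averaged.

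Kat2b, a histone acetyltransferase that joins the Notch coactivator complex, had the largest difference among 5 coactivator genes. It was at 10.21, 10.13 and 10.16 in WT and at 9.38, 8.94 and 7.95 in Lig4mut. The difference was -1.41 ± 0.39 (SE) or 2.66-fold (limma, adjusted p = 0.187), and all 3 of its probe sets were lower. Ep300 differed by 0.65 ± 0.51, and by 0.13 without Lig4mut replicate 2. Kat2a differed by 0.41 ± 0.48, by 0.080 without WT replicate 1 and by 0.92 without WT replicate 3.

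Of 9 genes for endocytosis and turnover 5 were higher and 4 lower. Neurl1a, a ubiquitin ligase of the ligands, was at 6.47, 6.79 and 6.62 in WT and at 6.92, 7.35 and 7.45 in Lig4mut (difference 0.62 ± 0.19 SE; limma, adjusted p = 0.204), with all 6 of its probe sets higher. Aak1 differed by -0.89 ± 0.36 and Mib2 by 0.57 ± 0.40. The glycosylation genes Mfng, Pofut1 and Rfng differed by -0.28, -0.51 and 0.21, and the corepressor genes Spen, Cir1 and Ctbp1 by 0.45, -0.25 and -0.23, all with overlapping groups. For Rfng the mean of its 2 probe sets differed by 0.97 (limma, unadjusted p = 0.00682, adjusted p = 0.124).

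The target genes gave 5 higher and 5 lower of 11, with Hey2 listed at the lowest value of the table in all 6 arrays. In the deposited values 3 were higher and 7 lower. Ptcra, the pre-T cell receptor chain, was at 4.43, 4.50 and 4.69 in WT and at 5.05, 4.90 and 5.33 in Lig4mut (difference 0.55 ± 0.16 SE; limma, adjusted p = 0.19). Hey1, a repressor of the Hes family, differed by 0.82 ± 0.51 (0.32 without Lig4mut replicate 2) and Myc by -0.21 ± 0.20, the latter by 0.12 with arrays centred on medians.

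**Figure D4:**
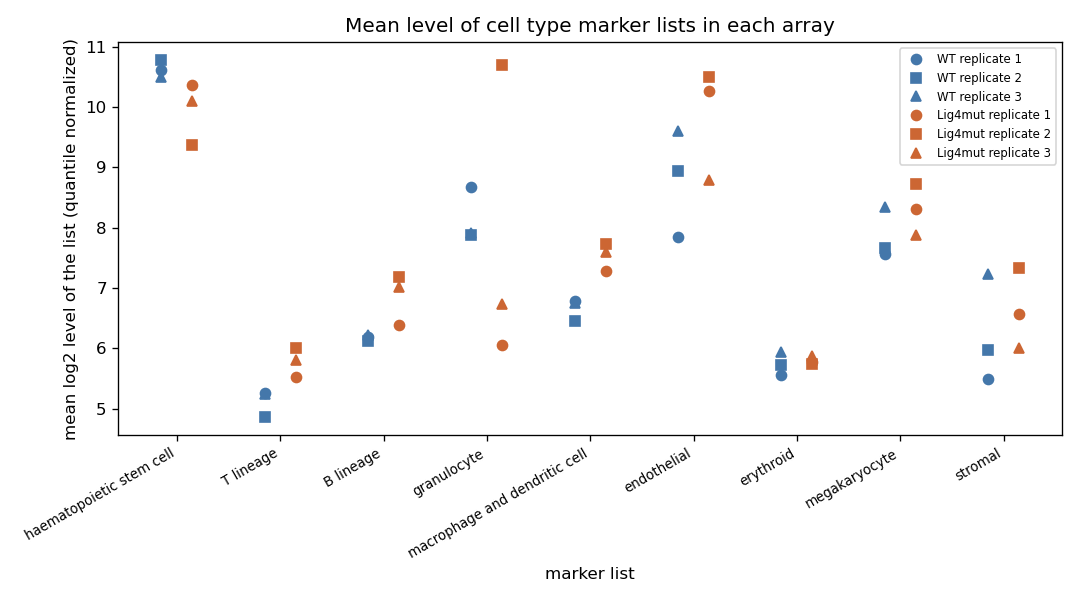
Mean log2 level (quantile normalized) of each cell type marker list in each of the 6 arrays, with WT in blue, Lig4mut in orange and a marker shape per replicate number. The T lineage, B lineage and macrophage and dendritic cell lists are higher in all Lig4mut arrays, and the granulocyte list is high in Lig4mut replicate 2, at 10.70.

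Markers of lymphoid cells had higher means in the mutant, where the median difference of all probe sets was 0.08 (-0.04 in the deposited values). With each gene by its brightest probe set, as for the markers, genes over the array also leaned upward. Of those with an unadjusted p under 0.05 (limma), 78.8% were higher. All 10 measured T lineage markers had higher means in Lig4mut, with a mean list level of 4.86 to 5.26 in WT and 5.52 to 6.00 in Lig4mut. In the deposited values 9 of 10 were higher, with 5.00 to 5.40 in WT and 5.43 to 5.86 in Lig4mut. All 8 measured B lineage markers were higher too (7 of 8 in the deposited values), with 6.11 to 6.23 in WT and 6.39 to 7.19 in Lig4mut. The macrophage and dendritic cell list was at 6.46 to 6.79 in WT and 7.28 to 7.73 in Lig4mut, with 7 of 9 markers higher (6 of 9 in the deposited values). All 8 endothelial markers had higher means as well, with list levels that overlapped between the genotypes. No marker of these lists was at the lowest value of the table in all arrays, but Ms4a1 was there in 1 array. Others were dim, with Il7r at 3.05 and Cd3e at 3.70 in their lowest arrays. Over the array, probe sets higher at an unadjusted p under 0.05 (limma) fell from 5440 to 2077 with dim ones left out. Those lower fell from 2508 to 1557. That run held fewer probe sets, so the counts do not compare directly. The higher share of the called probe sets went from 68.4% to 57.2%. The part of these cell types in the Dtx4 and Dtx1 values was not tested.

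Genes whose profile over the 6 arrays was most like that of Dtx4 1455711_at were sought by the smallest root mean square difference between profiles centred on their own means. Of 18192 other genes, each by its brightest probe set, the nearest was Pop7, a subunit of ribonuclease P, at 0.12. It was at 7.44, 7.79 and 8.03 in WT and at 9.78, 9.68 and 10.10 in Lig4mut. The next were Dact3 at 0.20, the vitamin D hydroxylase gene Cyp24a1 at 0.20, Ccdc102a at 0.21 and the semaphorin gene Sema3f at 0.23. Their differences ranged from 1.59 in Dact3 to 2.10 in Pop7. The measure picks genes with a similar step between the genotypes, for which Dtx4 was chosen. None of the other members and none of the 53 listed pathway genes was among these 5. With only 5 of 18192 genes named, their absence says nothing about them.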

How the data were processed

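The values analysed are the authors' deposited log2 expression values, 1 per probe set and array, for which the submitters' processing notes name RMA without a version. All arrays share a lowest value of 3, a floor whose origin the labels do not give. Scanner files were not used here. Per the labels' protocols RNA was extracted with Trizol, while the amplification kit named in the design text and the labelling protocol differ.

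Deposited array medians were 6.29 to 6.34 in WT and 5.97 to 6.05 in Lig4mut, so the values were quantile normalized across the 6 arrays. No member value was at the floor. Of 45101 probe sets, 64 controls were left out of the tests. Genes were named through GEO's platform annotation (34958 probe sets with 1 gene, 932 with several, 9160 with none), with symbols updated by gene identifier to NCBI's table for GRCm38.p6. Tests used lmFit and eBayes of limma 3.58.1 (R 4.3.3, two-sided), with p-values adjusted by Benjamini-Hochberg over 45037 probe sets at a threshold of 0.05. A listed gene stands by its brightest probe set, that of highest mean over the 6 arrays.

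Members, gene lists and tests were chosen with earlier results of these data known. Named were Lig4, all members, up to 3 genes per role by smallest p and the 5 genes most like Dtx4. Of the listed pathway genes, 5 were not analysed here. Replicate numbers were checked for pairing. Deviations of same-numbered arrays correlated at 0.05, 0.01 and -0.02, so the numbers were not taken as pairs.

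On 10 simulated data sets of 45037 probe sets with 200 changed, the test called 5.8% of log2 changes of 1, 21.2% of changes of 2 and 52% of changes of 4, with 3.8 false calls per simulation. Both genotypes were simulated with the same SD, while the data had median SDs of 0.30 in WT and 0.46 in Lig4mut. In the data 7948 probe sets had an unadjusted p under 0.05 (limma), so these percentages need not hold for them.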

Additional observations from a re-analysis of the deposited data

How the results depend on the processing

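No probe set passed the adjusted threshold in limma (7948 had an unadjusted p under 0.05). The count was 21 in the values as deposited, 1 with cyclic loess, 1 with a robust variance trend and 2 with each gene by its brightest probe set, and 0 to 0 without 1 array. Probe sets higher at an unadjusted p under 0.05 numbered 5440, and 2337 as deposited, 2911 with cyclic loess, 2077 with dim probe sets left out (under the 40th percentile), 2826 by the brightest probe set, 2786 with probe sets averaged and 3553 to 5875 without 1 array. Those lower numbered 2508, and 1557 with dim probe sets left out, 760 by the brightest probe set, 1009 with probe sets averaged and 1964 to 3244 without 1 array. The higher share was 68.4%, 39.7% as deposited, 77.6% with arrays centred on medians and 49.3% with cyclic loess. It was 78.8% by the brightest probe set and 73.4% with probe sets averaged. The gene-level runs and the run with dim probe sets left out held fewer entries, so their counts do not compare directly with the others. The cause of the shifts was not tested.

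Of the 18 member probe sets without Dtx4, 1 had an unadjusted p under 0.05. The count was 2 as deposited, with centred arrays, with the replicate block and with array weights. It was 0 with cyclic loess, with dim probe sets left out or with probe sets averaged. The run with dim probe sets left out did not hold Dtx1 1425822_a_at, the 1 probe set counted, so it did not test it. Without 1 array it was 0 to 3, with 0 without WT replicate 1 or WT replicate 2, 2 without Lig4mut replicate 1 and 3 without Lig4mut replicate 2. Of the listed pathway genes 8 did so, 4 with dim probe sets left out, 4 to 9 without 1 array and 4 without WT replicate 1. Of the 8, Dll3 and Ptcra were themselves among the dim probe sets left out. With the replicate block as a term 0 probe sets passed the adjusted threshold. At the unadjusted level the block lost Dtx1 1425822_a_at (limma, adjusted p = 0.336) and gained both probe sets of Dtx2 (limma, adjusted p = 0.301 and 0.331), Jag1 (0.302) and Aak1 (0.301), so that 10 listed pathway genes passed at that level.

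None of the 18 member probe sets without Dtx4 passed the adjusted threshold under any alternative run, and Dtx4 was not tested. Signs turned with centred arrays for Dtx3l 1435208_at (0.20), Notch1 1418633_at (0.17), Maml1 1441697_at (0.016), Mfng (0.082), Cir1 (0.037), Ctbp1 (0.090) and Myc (0.12), with array weights for Maml1 1441697_at (0.076), and with probe sets averaged for Rbpj 1448957_at (-0.28) and Kat2a (-0.078). Without 1 array, signs turned for Dtx3l 1435208_at (-0.18 to 0.067), Dtx3l 1439825_at (-1.11 to 0.24), Notch1 1418633_at (-0.60 to 0.61), Notch1 1418634_at (-0.29 to 0.33), Hes1 (-0.12 to 0.90), Maml1 1426769_s_at (-0.11 to 0.50), Maml1 1441697_at (-0.58 to 0.41), Pofut1 (-0.94 to 0.16), Cir1 (-0.42 to 0.0094) and Ctbp1 (-0.48 to 0.060). Dtx4 1455711_at was between 1.17 with probe sets averaged and 2.04 without WT replicate 3 over its 15 alternatives. Dtx4 1436545_at was between 0.05 and 0.50 over its 13. Dtx4 was chosen for being higher in these same arrays, so these ranges describe its values and its kept direction is no support. Background correction, slide and scan batches could not be tried on the deposited values.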
